A study of Mus musculus with 12 samples.

Results

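The gene families of the metalloproteases that cut the extracellular matrix and the surfaces of cells, together with their inhibitors, were followed in mouse gastruloids grown inside gels. The members were all genes of the matrix metalloproteinase family (Mmp), the ADAM family (Adam), the ADAMTS family (Adamts) and the tissue inhibitors of metalloproteinases (Timp), taken by their gene symbols whatever their values. This gave 79 of the 55138 genes in the expression table, made up of 23 Mmp, 33 Adam, 19 Adamts and 4 Timp genes.

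Gastruloids are aggregates of embryonic stem cells that break symmetry and elongate in culture, and here they were made from 129/svev mouse cells, 300 per well, with a 24 h pulse of 3 µM CHIR99021, a WNT pathway agonist, from 48 h after seeding. They were embedded at 72 h or at 96 h in a hydrogel of dextran linked by polyethylene glycol, at 1.0 mM or 1.5 mM of reactive groups, so that the 4 groups were early (72 h) and late (96 h) embedding in each of the 2 gels. All were collected at 120 h, after the gel had been dissolved with dextranase, and polyadenylated RNA was sequenced from 3 biological replicates a group, each a pool of about 30 gastruloids. All groups shared the cell line, the CHIR99021 pulse, the N2B27 medium and the embedding itself, since gastruloids left outside a gel are not analysed here, and the groups differed both in when the gel was added and in how long it was present before collection.

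The libraries held between 23011791 and 27609422 counts. The 6 markers of gastruloid identity that were checked (T, Sox2, Cdx2, Tbx6, Meox1 and Foxc1) summed to 446 to 802 CPM (counts scaled to the size of the library) in all libraries. This sum was 446 to 593 CPM at 72 h and 600 to 802 CPM at 96 h, and in each gel 3 of the 6 passed the test below as lower at 72 h and 1 as higher. The leukocyte list summed to at most 0.404 CPM with Ptprc and Adgre1 at 0. The 5 extra-embryonic endoderm markers summed to 8.13 to 29.4 CPM, with Afp at 0 counts, and both of the 2 that could be tested in the 1.0 mM gel passed as higher at 72 h, where the sum was 16.8 to 29.4 CPM against 8.13 to 12.7 CPM at 96 h. In the 1.5 mM gel none of the 3 tested passed, with sums of 14.1 to 29.2 CPM at 72 h and 13.5 to 14.25 CPM at 96 h. Libraries numbered 1 stood apart among the gastruloids embedded at 72 h, where the 6 cardiac mesoderm markers summed to 517 CPM in the 1.0 mM gel and 420 CPM in the 1.5 mM gel, against 219 to 296 CPM in the other 4 libraries. In the gastruloids embedded at 96 h this sum was 28.6 to 161 CPM. Marker lists also differed between the embedding times, since 5 of 5 pluripotency markers passed the test below as lower at 72 h in each gel, and 5 of 5 somite markers in the 1.0 mM gel and 4 of 5 in the 1.5 mM gel did as well. The part of these cells and of those of the cardiac and extra-embryonic lists in the results on embedding time was not tested. Calls on embedding time that were lost without the libraries numbered 1 are therefore given with their values without them. In pooled tissue of this kind, fewer cells of a type and less RNA per cell cannot be told apart.

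Matrix metalloproteinases are zinc-dependent enzymes made as inactive precursors. The secreted members include the collagenases, which cut fibrillar collagen, the gelatinases MMP2 and MMP9, which digest denatured collagen and the collagen of basement membranes, and the stromelysins, while membrane-type members stay at the cell surface, where MMP14 also activates pro-MMP2. ADAM proteins are membrane-anchored, and those with protease activity release the outer parts of signalling proteins such as NOTCH receptors and ligands of the EGF receptor. Which of the Adam genes encode active proteases was not examined, so counts and sums of this family hold all of them. ADAMTS proteins are secreted and process procollagens and large proteoglycans, and TIMP proteins bind and block the active sites. In the embryo such enzymes are known from cell migration, somite and heart development and the remodelling of basement membranes.

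Many members were silent or close to it at 120 h. Of the 79 members, 21 had no count in any of the 12 libraries (8 Mmp and 13 Adam), and 58 had at least 1 count. A count of 0 in a library allows a level of up to 0.109 to 0.13 CPM, which covers counting error only. The collagenases were among the silent members, with Mmp1a, Mmp1b and Mmp8 at 0 counts and Mmp13 at 14 counts over all libraries and no more than 3 in any of them. In all, 11 Mmp and 15 Adam genes never exceeded 3 counts in a library, whereas all 19 Adamts and all 4 Timp genes did in at least 1 library. The pairs Mmp1a and Mmp1b, Adam6a and Adam6b, and Adam26a and Adam26b were among the members at 0. Where such copies share sequence, the counting could also have dropped shared reads, and their identity was not computed.

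The promoters of silent Mmp genes, most of them neighbours on chromosome 9, and of the few abundant ones with an entry differed in a pair of short motifs. Of these promoters, 4 are shown to make this visible. The window runs from 250 bases before to 50 bases after the start of the gene in RefSeq (build GRCm38.p6), and 49 of the 79 members had an entry, with 54 promoters. Capitals mark the AP-1 motif TGANTCA and the TATA box TATAAA, searched on both strands.
Mmp3, chr9:7445572-7445871, plus strand: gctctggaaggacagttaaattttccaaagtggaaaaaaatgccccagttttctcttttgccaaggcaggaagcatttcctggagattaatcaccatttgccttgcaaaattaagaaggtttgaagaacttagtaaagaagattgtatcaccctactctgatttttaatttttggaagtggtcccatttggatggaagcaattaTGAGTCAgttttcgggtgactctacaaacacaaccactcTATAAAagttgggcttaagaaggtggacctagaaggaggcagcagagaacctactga
Mmp10, chr9:7502092-7502391, plus strand: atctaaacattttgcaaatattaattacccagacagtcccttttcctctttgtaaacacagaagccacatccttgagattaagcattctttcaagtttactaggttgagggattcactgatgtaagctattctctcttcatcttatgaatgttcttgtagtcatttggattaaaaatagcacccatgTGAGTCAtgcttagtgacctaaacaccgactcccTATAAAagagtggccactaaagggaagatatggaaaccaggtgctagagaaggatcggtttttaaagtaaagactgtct
Mmp14, chr14:54431348-54431647, plus strand: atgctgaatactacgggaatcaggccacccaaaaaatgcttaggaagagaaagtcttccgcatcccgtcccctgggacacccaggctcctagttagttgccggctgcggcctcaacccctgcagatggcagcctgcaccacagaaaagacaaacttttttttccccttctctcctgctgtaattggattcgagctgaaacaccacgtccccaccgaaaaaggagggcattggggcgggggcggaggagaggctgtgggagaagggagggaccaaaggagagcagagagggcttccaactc
Mmp15, chr8:95352046-95352345, plus strand: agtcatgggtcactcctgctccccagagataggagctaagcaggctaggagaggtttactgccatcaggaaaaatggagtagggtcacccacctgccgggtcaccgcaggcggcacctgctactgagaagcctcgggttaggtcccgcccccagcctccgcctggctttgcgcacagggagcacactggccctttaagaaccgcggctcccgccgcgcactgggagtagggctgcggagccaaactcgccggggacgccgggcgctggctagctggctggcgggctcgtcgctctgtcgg

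Mmp3 and Mmp10, which encode stromelysins and never exceeded 3 counts in a library, each held both motifs, with the AP-1 motif 46 and 63 bases before the start and the TATA box 7 and 29 bases before it, counted to the first base of the motif. Mmp14 and Mmp15, both abundant, held neither. Among the 11 Mmp genes with at most 3 counts in every library, all had a promoter entry, and 8 of these held the AP-1 motif (Mmp1a, Mmp1b, Mmp3, Mmp7, Mmp10, Mmp12, Mmp13 and Mmp20), 10 held the TATA box letters and 8 held both. The place of the TATA letters varied. They began 28, 49, 26 and 16 bases before the start in Mmp1a, Mmp1b, Mmp7 and Mmp13, with another match 123 bases before it in Mmp7. In Mmp20 and Mmp21 they began 58 and 70 bases before it. In Mmp12 they began 4 bases after it, and in Mmp8 the reverse letters TTTATA began 3 bases before it. All 8 with the AP-1 motif lie in chr9:7272514-7699585, so their promoters are not independent examples. Mmp8 and Mmp27, both at 0 counts, lie in the same stretch without this motif. The 8 Mmp genes are also 8 of the 13 members of all families that held it. Of the 6 Mmp genes with a mean of at least 1 FPKM (fragment counts scaled to both transcript length and library size, so that genes can be compared with each other), only Mmp11, Mmp14 and Mmp15 had an entry, and none of these held either motif. Over all 32851 promoters in the same table, 7.81% held the AP-1 motif, 13.6% held the TATA box and 1.54% held both, against 24.1% and 25.9% of the member promoters for the single motifs. In the Adam family the AP-1 motif was found in 1 of the 7 matched genes with a mean of at least 1 FPKM, Adam19, 131 bases before the start, and in 4 of the 8 matched genes with at most 3 counts in every library (Adam1b, Adam20, Adam25 and Adam29). The TATA letters were found in 3 of these 8 and in none of the 7. They began 219 bases before the start in Adam29, and as the reverse letters 104 and 205 bases before it in Adam6a and Adam6b. Of the 10 matched Adamts genes only Adamts1 held a motif, the TATA box 32 bases before the start, and neither motif was found in the 4 Timp promoters. A match describes the letters at any place in this window, on either strand, and is not a measured binding site.

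Few genes made up most of the RNA of each family. Of the 79 members, 26 had a mean of at least 1 FPKM, namely 6 Mmp, 10 Adam, 7 Adamts and 3 Timp genes. Adam10, a sheddase that cuts NOTCH receptors (chr9:70678997-70780229 in mm10), had the highest mean level of all members with 27.1 FPKM and made up 40.0% of the summed Adam level. It was followed in its family by Adam17, the sheddase of many EGF receptor ligands, with 11.7 FPKM, by Adam9 with 8.4 FPKM and by Adam19 with 7.77 FPKM. Adam15 was listed at 0 FPKM in 4 libraries although it had 434 to 779 counts in every library, so its mean of 3.60 FPKM is too low and the summed Adam level varies with it.

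Membrane-type Mmp14 (chr14:54431612-54445364) led the Mmp family with 23.6 FPKM and 31.3% of the family sum. The gelatinase Mmp2 (chr8:92827291-92853420) followed with 17.9 FPKM, Mmp11, an unusual stromelysin that is activated inside the cell, with 13.6 FPKM and membrane-type Mmp15 with 13.1 FPKM. Together these 4 genes stood far above Mmp17, at 3.38 FPKM, and Mmp9 (chr2:164940780-164955850), the other gelatinase, at 1.45 FPKM or 1.93% of the family sum. The order of these leading genes depended on the scale, because Mmp14 ranked 2 of all members by FPKM and 5 by CPM per kilobase of exon, with 13.8 against 21.7 for Mmp2, 16.3 for Mmp15 and 15.5 for Mmp11. On both scales the neighbouring Mmp11 and Mmp15 had overlapping values in the individual libraries.

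In the Adamts family, Adamts10, which is linked to fibrillin microfibrils, had 8.90 FPKM and 37.9% of the family sum, Adamts9, which cuts versican, had 4.43 FPKM, Adamts15 had 1.61 FPKM and Adamts7 had 1.44 FPKM. Among the inhibitors, Timp3, the member that binds to the matrix, had 5.42 FPKM, Timp2 had 4.76 FPKM, Timp1 had 2.88 FPKM and Timp4 had 0.315 FPKM. The exons of Timp3 share 21.3% of their bases with Syn3 on the opposite strand, and those of Adam15 share 20.6% with an antisense gene, so their counts depend on how strand was treated in counting, which is not given in the sources used here, while the FPKM values were made with a stranded setting. Adamts4, Adam1a, Mmp19 and Mmp24 were listed at 0 FPKM in all libraries although they had 929, 1667, 248 and 26 counts in total, and their levels are given in CPM only.

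**Figure D1:**
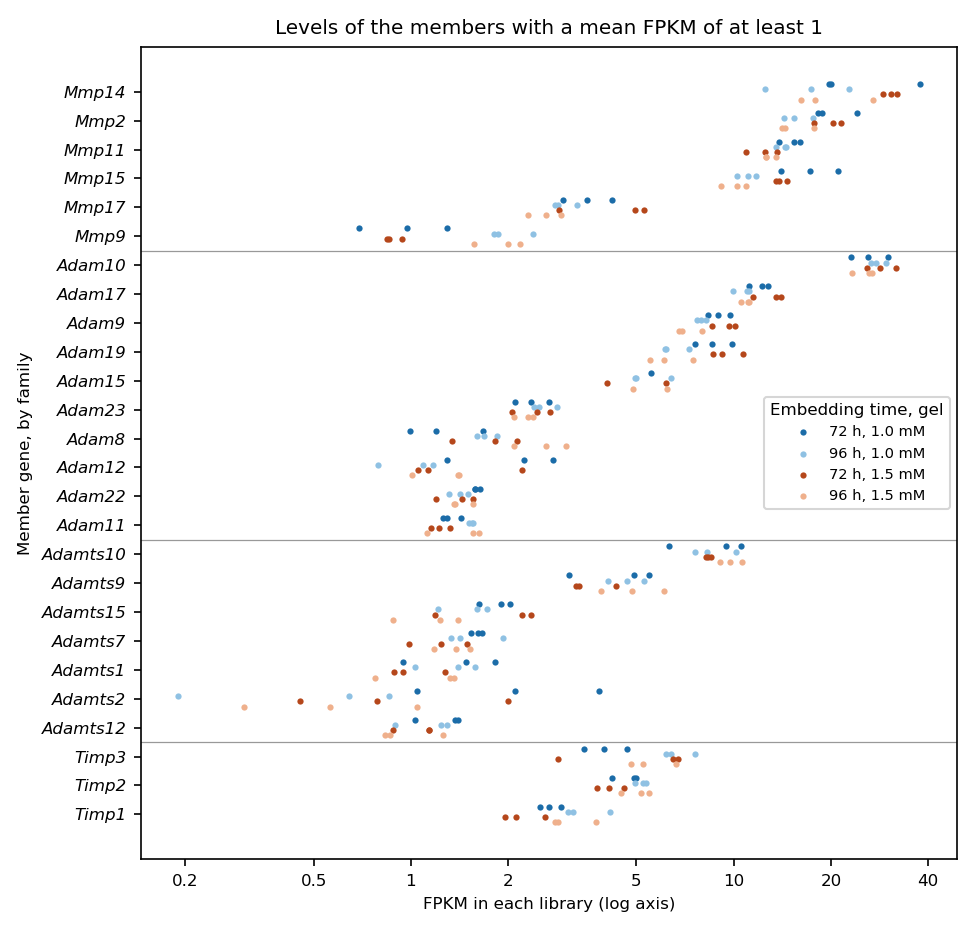
FPKM (log axis) of the 26 members with a mean of at least 1 FPKM in each of the 12 libraries, 1 point per library, coloured by embedding time and gel and ordered by mean within each family. Adam10, Mmp14 and Mmp2 lie furthest to the right, Adamts2 has the widest spread, and the 4 libraries in which Adam15 is listed at 0 cannot be drawn on a log axis.

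The first comparison asked how the members differed between gastruloids embedded at 72 h and at 96 h within the same gel. Counts were tested with edgeR's quasi-likelihood test with Benjamini-Hochberg adjustment over all genes, a gene was called differentially expressed at an adjusted p below 0.05 and a log2 fold change beyond 1 in either direction, and positive log2 fold changes are higher at 72 h. In the 1.0 mM gel, 4 of 43 tested members were differentially expressed (9.30%), against 4.3% of all genes tested. These were Adamts2, Timp4 and Adam12, higher at 72 h, and Mmp9, lower at 72 h. Without the fold threshold, 8 of the 43 members passed, against 9.24% of all genes, 5 of them higher at 72 h (5.97% of all genes) and 3 lower (3.27%). In the 1.5 mM gel, 1 of 44 tested members was differentially expressed, Mmp9 again, against 3.18% of all genes, and 9 passed without the fold threshold, against 19.3% of all genes, 7 higher at 72 h (10.4% of all genes) and 2 lower (8.98%). The early and late libraries did not overlap for 20 of 43 members in 1.0 mM, against 28.4% of all genes, and for 15 of 44 in 1.5 mM, against 39.9%. The median log2 fold change of the members was 0.0644 in the 1.0 mM gel and -0.0299 in the 1.5 mM gel, beside -0.00545 and -0.00515 over all genes tested.

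The gelatinases went in opposite directions. Mmp9 was at 3.98, 2.94 and 5.49 CPM in the 3 early libraries of the 1.0 mM gel and at 9.89, 7.67 and 7.54 CPM in the late ones. In 1.5 mM it was at 3.78, 3.87 and 3.49 CPM early and at 8.66, 7.14 and 9.00 CPM late. Every library embedded at 96 h was above every library embedded at 72 h in both gels. Mmp9 was thus lower at 72 h, in the 1.0 mM gel by a log2 fold change of -1.01 with a standard error of 0.225 (edgeR adjusted p = 0.0168) and in the 1.5 mM gel by -1.16 ± 0.152 (edgeR adjusted p = 0.00281), and standard errors follow the ± sign of all log2 values from here on. In the fit of all 12 libraries with gel as a covariate it had the smallest adjusted p of all members, with -1.08 ± 0.138 (edgeR adjusted p = 5.53e-05). Without the libraries numbered 1 the log2 fold change in 1.0 mM was -0.85, which did not pass (edgeR adjusted p = 0.142), and without late library 1 alone it was -0.88 (edgeR adjusted p = 0.0717).

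Mmp2, by contrast, was higher in gastruloids embedded early. In 1.0 mM its values were 97.1, 75.6 and 76.5 CPM early and 70.2, 57.8 and 62.7 CPM late, without overlap. In 1.5 mM they were 94.0, 72.0 and 80.6 CPM early and 72.3, 63.5 and 57.0 CPM late, where the lowest early library lay just under the highest late one. Neither gel alone passed, with a log2 fold change of 0.39 ± 0.111 (edgeR adjusted p = 0.0513) in 1.0 mM and 0.35 ± 0.114 (edgeR adjusted p = 0.0584) in 1.5 mM, although both passed in DESeq2 (adjusted p = 0.0215 and 0.0167). Mmp2 passed across both gels with 0.37 ± 0.0841 (edgeR adjusted p = 0.00416). The ratio of Mmp2 to Mmp9 in FPKM was accordingly 14.5 to 26.5 in the 6 libraries embedded at 72 h and 6.48 to 9.21 in the 6 embedded at 96 h. No library embedded at 96 h reached the ratio of any embedded at 72 h.

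The membrane-type enzymes were higher after early embedding wherever they passed. Of the 5 tested, 1 passed in 1.0 mM (Mmp15), 4 passed in 1.5 mM (Mmp14, Mmp15, Mmp16 and Mmp17) and 3 passed across both gels (Mmp14, Mmp15 and Mmp17), all of them higher at 72 h, against 9.24%, 19.3% and 31.1% of all genes passing in either direction. Mmp15 (chr8:95352268-95375080) was at 138, 94.4 and 115 CPM early and at 76.8, 72.9 and 67.9 CPM late in 1.0 mM. Its values in 1.5 mM were 106, 90.0 and 90.5 CPM early and at 73.2, 66.0 and 66.9 CPM late. The times did not overlap in either gel. The log2 fold change was 0.68 ± 0.121 (edgeR adjusted p = 0.00545) in 1.0 mM and 0.47 ± 0.0821 (edgeR adjusted p = 0.00691) in 1.5 mM.

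Mmp14, the activator of pro-MMP2, varied more between replicates. In 1.0 mM it was at 128, 69.2 and 68.8 CPM early and at 77.1, 42.3 and 60.9 CPM late, so that the times overlapped and only library 1 of the 72 h group stood out. In 1.5 mM it was at 116, 99.4 and 108 CPM early and at 93.7, 67.1 and 54.95 CPM late, without overlap. The log2 fold change was 0.57 ± 0.245 (edgeR adjusted p = 0.196) in 1.0 mM, where it was 0.21 without early library 1 (edgeR adjusted p = 0.589), and 0.58 ± 0.163 (edgeR adjusted p = 0.0373) in 1.5 mM. Across both gels Mmp14 passed with 0.57 ± 0.169 (edgeR adjusted p = 0.0191), and without the libraries numbered 1 its log2 fold change was 0.42 in 1.0 mM (edgeR adjusted p = 0.194) and 0.76 in 1.5 mM (edgeR adjusted p = 0.000514).

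Mmp17, anchored to the membrane by a lipid, was at 25.9, 40.9 and 42.9 CPM early and at 19.2, 26.3 and 21.4 CPM late in 1.5 mM, where library 1 of the early group fell within the late group. Its log2 fold change was 0.71 ± 0.182 there (edgeR adjusted p = 0.0262) and 0.28 ± 0.137 in 1.0 mM (edgeR adjusted p = 0.252). Mmp16 was at 7.11, 8.19 and 11.03 CPM early and at 5.17, 5.74 and 5.49 CPM late in 1.5 mM, without overlap (log2 fold change 0.68 ± 0.177, edgeR adjusted p = 0.0276). In 1.0 mM it was close to equal at both times, with 0.07 ± 0.221 (edgeR adjusted p = 0.895). Mmp25 did not pass in either gel, and in 1.0 mM it went the other way from the rest of the group. It was at 2.37, 2.37 and 2.46 CPM early and at 4.485, 3.01 and 3.68 CPM late there, without overlap. Its log2 fold change was -0.63 ± 0.213 (edgeR adjusted p = 0.0963) in 1.0 mM and 0.02 ± 0.259 (edgeR adjusted p = 0.969) in 1.5 mM. Mmp11, of the stromelysin group, had log2 fold changes of 0.08 ± 0.101 and -0.06 ± 0.102 in the 2 gels (edgeR adjusted p = 0.689 and 0.699).

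Among the Adam genes, the abundant Adam10 did not pass in either gel, and the share of members that passed in 1.5 mM lay near that of all genes. Of the Adam genes tested, 2 of 13 passed in 1.0 mM (Adam12 and Adam19) and 3 of 14 in 1.5 mM (Adam9, Adam17 and Adam19), all higher at 72 h, against 9.24% and 19.3% of all genes, and 6 of 15 passed across both gels, 3 in each direction, against 31.1%. Adam10 was at 152, 139 and 179 CPM early and at 161, 157 and 177 CPM late in 1.0 mM, overlapping throughout. In the 1.5 mM gel the early libraries, at 166, 168 and 185 CPM, were all above the late ones, at 161, 150.3 and 154 CPM. Its log2 fold change was -0.07 ± 0.0983 in 1.0 mM (edgeR adjusted p = 0.718) and 0.15 ± 0.0628 in 1.5 mM (edgeR adjusted p = 0.111), where it passed without early library 1 alone and without all libraries numbered 1. Adam19, known for its part in heart development, was at 80.2, 63.6 and 71.3 CPM early and at 59.5, 50.4 and 51.0 CPM late in 1.0 mM. In 1.5 mM it was at 76.9, 76.1 and 86.9 CPM against 62.6, 49.3 and 49.8 CPM. The times did not overlap in either gel, with log2 fold changes of 0.42 ± 0.103 (edgeR adjusted p = 0.0258) and 0.57 ± 0.102 (edgeR adjusted p = 0.00753).

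Adam17 was higher at 72 h by a small margin, with 70.3, 66.8 and 68.6 CPM against 61.4, 56.5 and 62.7 CPM in 1.0 mM and 70.2, 78.8 and 78.9 CPM against 64.3, 65.2 and 61.5 CPM in 1.5 mM. These values did not overlap between the times, and the log2 fold change passed in 1.5 mM (0.25 ± 0.0681, edgeR adjusted p = 0.0325) and not in 1.0 mM (0.19 ± 0.0778, edgeR adjusted p = 0.163). Adam9 had log2 fold changes of 0.21 ± 0.0896 in 1.0 mM (edgeR adjusted p = 0.196) and 0.39 ± 0.0825 in 1.5 mM (edgeR adjusted p = 0.0137), likewise without overlap between the times in either gel. Across both gels Adam8, Adam15 and Adam28 were lower at 72 h. Adam28, the least abundant of these, had a log2 fold change of -0.98 ± 0.247 (edgeR adjusted p = 0.00777), from 0.355 to 0.593 CPM in the libraries embedded at 72 h to 0.584 to 1.51 CPM in those embedded at 96 h. Adam15 had -0.28 ± 0.0758 (edgeR adjusted p = 0.013) and Adam8 had -0.46 ± 0.139 (edgeR adjusted p = 0.0207).

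For Adam12 (chr7:133883199-134232146) and Adamts2 (chr11:50602084-50807573), library 1 of the 72 h group was the highest in both gels, as it was for the summed cardiac markers. Adam12, a protease of developing muscle and mesenchyme, was at 27.2, 13.1 and 22.6 CPM early and at 11.4, 10.8 and 7.98 CPM late in 1.0 mM. Adamts2, which removes the amino-terminal propeptide of fibrillar procollagens, was at 27.7, 8.01 and 14.9 CPM early and at 4.75, 6.02 and 1.36 CPM late. In this gel every early library was above every late one for both genes, with log2 fold changes of 1.06 ± 0.236 for Adam12 (edgeR adjusted p = 0.0167) and 2.07 ± 0.485 for Adamts2 (edgeR adjusted p = 0.0211).

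In 1.5 mM, library 1 of the 72 h group alone stood high. Adam12 was at 23.8, 10.3 and 10.95 CPM early against 14.2, 11.2 and 13.8 CPM late, and Adamts2 was at 15.4, 5.70 and 3.24 CPM against 7.76, 4.42 and 2.30 CPM. Neither gene passed there, with log2 fold changes of 0.20 ± 0.288 (edgeR adjusted p = 0.664) and 0.74 ± 0.552 (edgeR adjusted p = 0.375). Without the libraries numbered 1, the values in 1.0 mM were 0.93 for Adam12 (edgeR adjusted p = 0.0685) and 1.64 for Adamts2 (edgeR adjusted p = 0.102), and that of Adam12 in 1.5 mM was -0.24. All 6 cardiac mesoderm markers in 1.0 mM and 4 of 6 in 1.5 mM were higher at 72 h, and the part of these cells in the values of Adam12 and Adamts2 was not tested.

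The other procollagen propeptidases were Adamts3 and Adamts14. Adamts3 was at 4.58, 2.53 and 2.37 CPM early and at 2.03, 1.41 and 1.36 CPM late in 1.0 mM, and passed across both gels, higher at 72 h (0.96 ± 0.24, edgeR adjusted p = 0.00769). Adamts14 passed across both gels in the opposite direction (-0.49 ± 0.179, edgeR adjusted p = 0.0492), a call that was lost in 9 of the 12 fits that left out 1 library (edgeR adjusted p 0.0504 to 0.128) and without the libraries numbered 1 (-0.29, edgeR adjusted p = 0.263).

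Adamts6 (chr13:104287873-104496592), which acts on microfibrils and is known from heart development, gave the clearest difference in its family. It was at 6.44, 5.92 and 5.04 CPM early and at 12.4, 6.90 and 10.7 CPM late in 1.0 mM. Its values in 1.5 mM were 5.15, 5.25 and 4.95 CPM early and at 9.67, 9.71 and 9.11 CPM late. The early libraries were the lower ones in both gels without overlap, with log2 fold changes of -0.78 ± 0.211 (edgeR adjusted p = 0.04) and -0.90 ± 0.124 (edgeR adjusted p = 0.00315). Unlike Adamts2, its replicates in 1.5 mM lay close together.

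None of the 6 tested Adamts genes that cut proteoglycans passed in either gel alone in the test above with all libraries. Across both gels 1 passed, Adamts15, which was higher at 72 h (0.51 ± 0.153, edgeR adjusted p = 0.021). The most abundant Adamts genes showed no call in any comparison of that test. In other fits in 1.5 mM, Adamts9 and Adamts15 did pass. These were the fits without early library 1 alone, without all libraries numbered 1, without the low-count filter and with a replicate block. Adamts9 also passed across both gels without that filter, and Adamts15 in DESeq2 in 1.5 mM (adjusted p = 0.00804). Adamts10 had log2 fold changes of 0.06 ± 0.175 in 1.0 mM and -0.18 ± 0.0858 in 1.5 mM, and Adamts9 had -0.02 ± 0.182 and -0.40 ± 0.171 (edgeR adjusted p = 0.867, 0.163, 0.97 and 0.128 in that order).

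The inhibitors divided between Timp4, higher after early embedding, and the other members, which were lower after early embedding wherever they passed. Timp4 (chr6:115241892-115252205), the least abundant inhibitor, was at 3.86, 3.43 and 2.50 CPM early and at 2.22, 1.00 and 1.14 CPM late in 1.0 mM, and at 1.91, 2.32 and 2.11 CPM against 0.825, 0.923 and 1.71 CPM in 1.5 mM. On the CPM scale the times did not overlap in either gel, whereas in FPKM library 3 of the 96 h group in 1.5 mM, at 0.504 FPKM, lay within the 72 h range of 0.221 to 0.555 FPKM. The log2 fold change was 1.17 ± 0.315 (edgeR adjusted p = 0.0407) in 1.0 mM and 0.86 ± 0.303 (edgeR adjusted p = 0.0735) in 1.5 mM, and 1.02 ± 0.227 across both gels (edgeR adjusted p = 0.00351).

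Timp3 (chr10:86300372-86349506) had the highest level of the inhibitors in FPKM. In 1.0 mM it was at 23.9, 21.2 and 28.6 CPM early and at 38.2, 37.2 and 46.4 CPM late, so that all early libraries were lower, with a log2 fold change of -0.72 ± 0.131 (edgeR adjusted p = 0.00581). In 1.5 mM it was at 18.8, 41.0 and 38.6 CPM early and at 32.2, 31.8 and 39.6 CPM late. There only library 1 of the early group was low, and the log2 fold change was -0.08 ± 0.237 (edgeR adjusted p = 0.844), or 0.15 without the libraries numbered 1. Timp1 and Timp2 passed neither gel alone and were lower at 72 h across both gels by small margins, with log2 fold changes of -0.36 ± 0.131 (edgeR adjusted p = 0.048) and -0.21 ± 0.0744 (edgeR adjusted p = 0.0463). These calls were lost in 9 and 8 of the 12 fits that left out 1 library (edgeR adjusted p up to 0.123 and 0.112), and that of Timp2 also without the libraries numbered 1 (-0.25, edgeR adjusted p = 0.0634). In 1.5 mM, however, Timp1 and Timp2 both passed without early library 1 alone and without all libraries numbered 1.

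**Figure D2:**
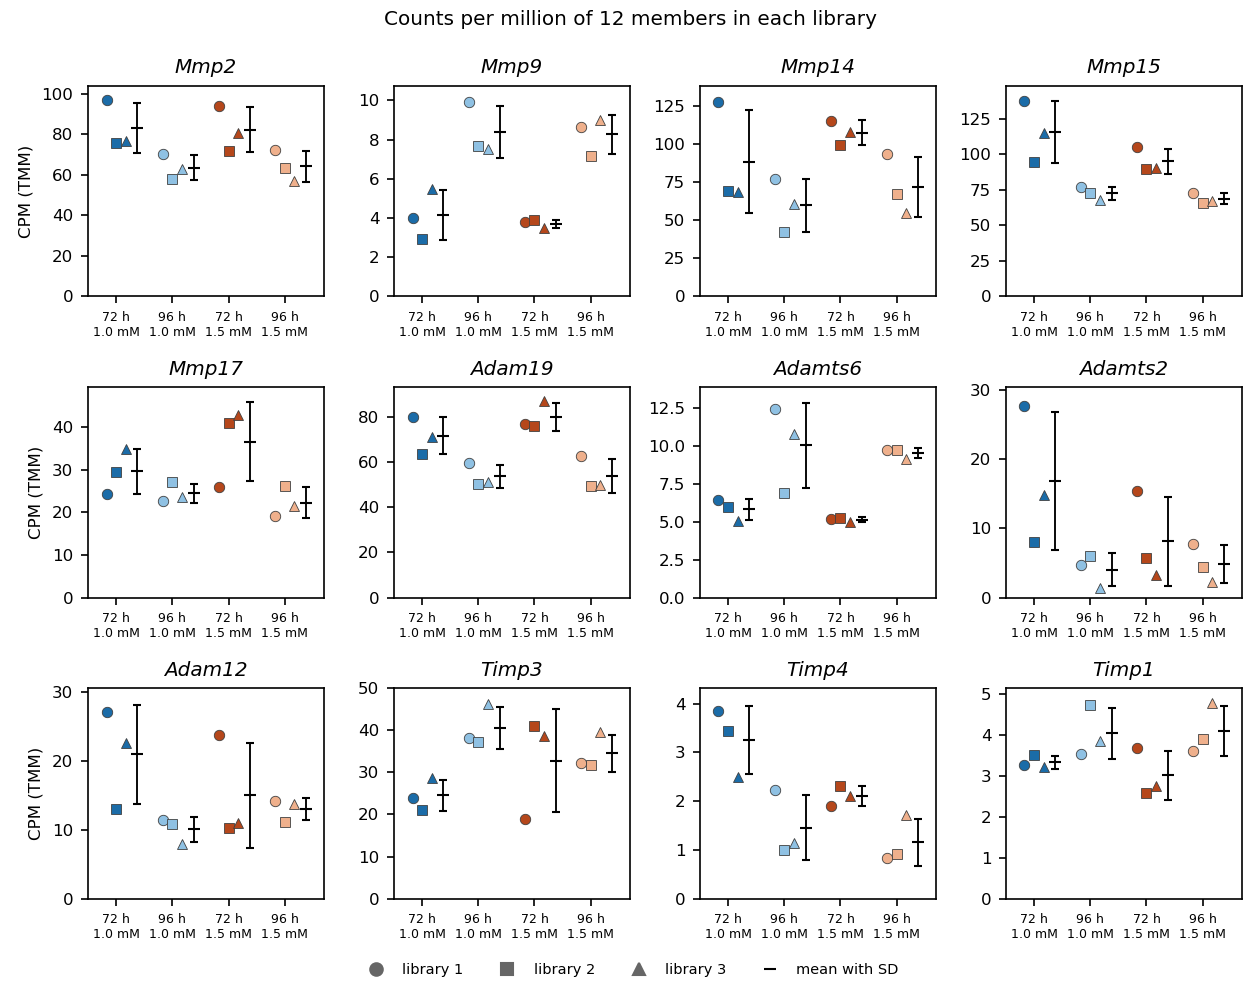
CPM (TMM-normalised) of 12 members in each library, by embedding time and gel, with circles, squares and triangles for the libraries numbered 1, 2 and 3 and a bar for the group mean with SD (n = 3). Mmp9 and Adamts6 are higher at 96 h and Mmp15 and Adam19 higher at 72 h in both gels without overlap, while the circles stand above the other libraries for Adamts2 and Adam12 at 72 h.

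Over the 12 libraries with gel as a covariate, 19 of 47 tested members passed an adjusted p of 0.05, against 31.1% of all genes, 11 of them higher at 72 h (16.2% of all genes) and 8 lower (14.8%), and 3 were differentially expressed with the fold threshold (Adamts2, Timp4 and Mmp9), against 4.66% of all genes. Of the 43 members tested in both gels, 13 passed in at least 1 gel, and all 13 had the same sign in both. The shares of all genes for these counts are not given, so they are a description and no result about the members. The sign also turned with 1 library left out for Mmp16 in 1.0 mM and for Timp3, Adam12 and Adamts2 in 1.5 mM. Among these 13, Adamts2, Adam12, Mmp16 and Timp3 differed most in size between the gels. Across both gels the call of Adamts2 was lost in 6 of the 12 fits that left out 1 library (edgeR adjusted p 0.051 to 0.0937), and those of Adam8 and Adamts15 were lost without late library 2 of the 1.5 mM gel (0.056 and 0.0516). Without the libraries numbered 1, the values across both gels were 1.051 for Adamts2, -0.48 for Adam8 and -1.03 for Adam28, none of which passed (edgeR adjusted p = 0.108, 0.0619 and 0.0522). In 1.0 mM, Adam19 at 0.41 and Adamts6 at -0.69 did not pass without these libraries either (edgeR adjusted p = 0.068 and 0.184). Several of the calls in a single gel also rested on few libraries. In 1.0 mM the calls of Timp4, Adam19 and Adamts6 were each lost in 4 of the 6 fits that left out 1 library (edgeR adjusted p up to 0.16, 0.121 and 0.166), that of Adam12 was lost without late library 2 or 3 (0.0531 and 0.078) and that of Adamts2 without late library 1 or 3 (0.0524 and 0.0538). In 1.5 mM the calls of Mmp14 and Mmp17 were lost in 4 and those of Mmp16 and Adam17 in 5 of the 6 (edgeR adjusted p up to 0.125, 0.0947, 0.103 and 0.115), and that of Adam9 was lost without early library 3 or late library 2 (0.0532 and 0.0503). The calls of Mmp15 in both gels, of Timp3 in 1.0 mM, and of Mmp9, Adam19 and Adamts6 in 1.5 mM passed in every such fit.

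**Figure D3:**
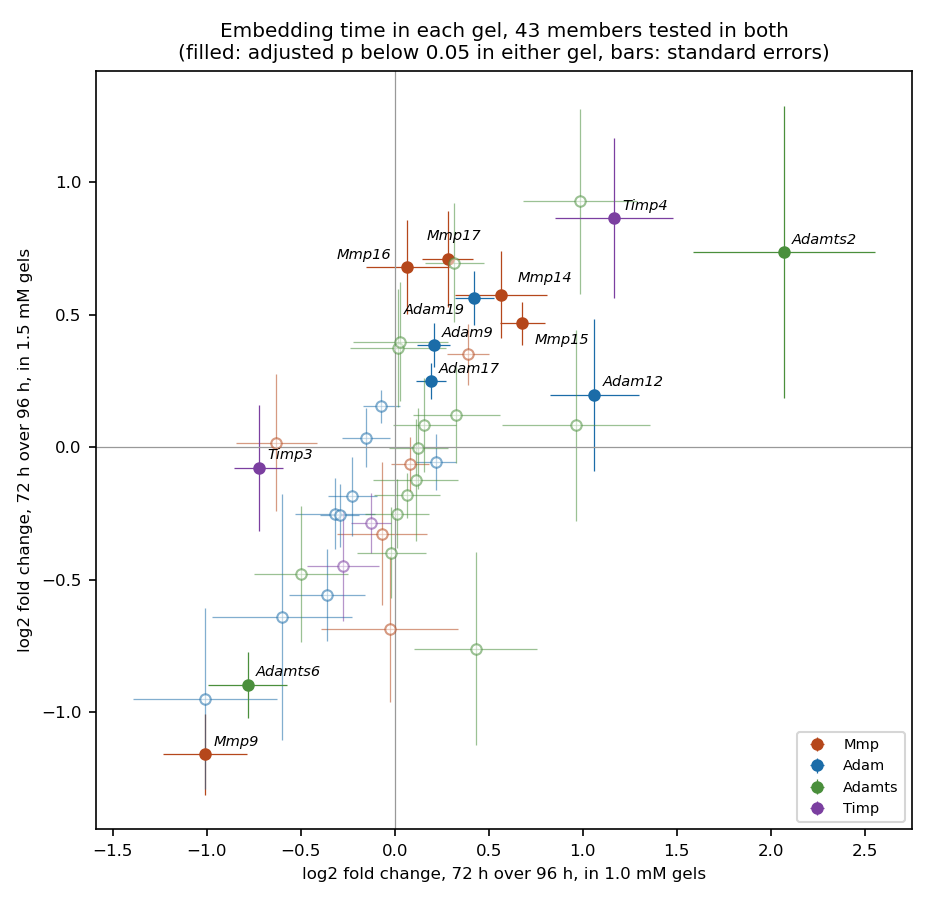
Log2 fold change of 72 h over 96 h embedding in 1.0 mM gels (horizontal) against that in 1.5 mM gels (vertical) for the 43 members tested in both, with standard errors as bars and filled points for an adjusted p below 0.05 in either gel. All 13 filled members lie in the quadrants of equal sign, with Mmp9 and Adamts6 at the lower left and Adamts2 and Timp4 at the right.

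Summed over the family, Mmp RNA was 85.3 ± 17.4 FPKM (SD, n = 3) at 72 h and 65.9 ± 7.59 FPKM at 96 h in 1.0 mM, and 84.6 ± 3.08 FPKM and 65.5 ± 8.23 FPKM in 1.5 mM. The summed Timp level was 11.9 ± 0.956 FPKM at 72 h and 15.6 ± 0.391 FPKM at 96 h in 1.0 mM, and 12.1 ± 1.62 FPKM and 14.0 ± 1.92 FPKM in 1.5 mM. The Mmp sums rest mostly on Mmp14, Mmp2, Mmp11 and Mmp15, and these sums are given as a description with no test. The ratio of summed Mmp to summed Timp RNA was 8.50, 6.66 and 6.30 at 72 h and 4.92, 3.81 and 3.998 at 96 h in 1.0 mM. In 1.5 mM it was 8.45, 6.35 and 6.48 at 72 h and 5.51, 4.94 and 3.81 at 96 h. All 6 libraries embedded at 72 h had more Mmp RNA per Timp RNA than any of the 6 embedded at 96 h, and the libraries numbered 1 had the highest ratio in each group. Summed Adamts RNA lay within the spread between the times, at 25.4 ± 4.44 FPKM and 23.2 ± 3.37 FPKM in 1.0 mM and 21.5 ± 0.857 FPKM and 23.7 ± 2.89 FPKM in 1.5 mM.

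**Figure D4:**
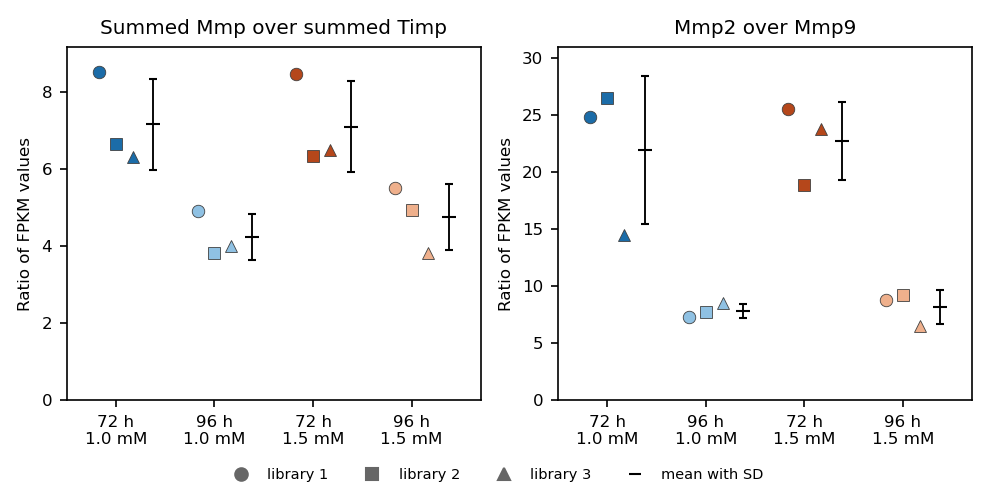
Ratio of summed Mmp to summed Timp FPKM (left) and of Mmp2 to Mmp9 FPKM (right) in each library, with the group mean and SD (n = 3). In both panels the 6 libraries embedded at 72 h lie above the 6 embedded at 96 h, from 6.30 to 8.50 against 3.81 to 5.51 on the left.

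Other genes of these pathways were taken from 8 lists of activators, inhibitors, regulators and substrates, whose counts stand beside 9.24% of all genes passing in 1.0 mM and 19.3% in 1.5 mM. Of the plasminogen activation genes, 7 of 9 were tested. Plau, the urokinase-type plasminogen activator, was lower at 72 h in both gels, with 0.402 ± 0.307 CPM against 2.36 ± 0.447 CPM in 1.0 mM (log2 fold change -2.54 ± 0.419, edgeR adjusted p = 0.00365) and 0.492 ± 0.113 CPM against 1.51 ± 0.879 CPM in 1.5 mM (-1.62 ± 0.478, edgeR adjusted p = 0.0426), and 1 other gene of the list passed in 1.5 mM, higher at 72 h. Of the 4 tested genes for astacin proteases and procollagen enhancers, 3 passed in each gel. Tll1, a protease that removes the carboxy-terminal propeptide of procollagen, was higher at 72 h, with 3.12 ± 0.756 CPM against 0.705 ± 0.109 CPM in 1.0 mM and 4.59 ± 1.60 CPM against 0.803 ± 0.427 CPM in 1.5 mM (edgeR adjusted p = 0.00118 and 0.00562). Pcolce, the enhancer of that reaction, was lower at 72 h in both gels, with log2 fold changes of -1.10 ± 0.142 (edgeR adjusted p = 0.00103) and -0.81 ± 0.194 (edgeR adjusted p = 0.021), and the third, Bmp1, was lower as well. Activator, enhancer and propeptidase genes therefore did not change in 1 direction.

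Of the other Mmp inhibitors and activators, 3 of 10 tested passed in 1.0 mM and 4 of 10 in 1.5 mM, in both directions. Spock3, a proteoglycan of the testican family, was at 1.18 ± 0.335 CPM early against 3.69 ± 0.994 CPM late in 1.5 mM (log2 fold change -1.63 ± 0.286, edgeR adjusted p = 0.00686). Of the ADAMTS-like genes, 1 of 4 passed in 1.0 mM and 2 of 4 in 1.5 mM. Adamtsl3 was lower at 72 h, with log2 fold changes of -1.97 ± 0.288 (edgeR adjusted p = 0.00189) and -1.27 ± 0.394 (edgeR adjusted p = 0.05, just under the threshold). Of the matrix substrates, 2 of 10 passed in 1.0 mM and 1 of 10 in 1.5 mM, below the share of all genes in the latter gel, and these were higher at 72 h. Tnc, which encodes tenascin C, was at 12.6 ± 6.203 CPM early and 5.39 ± 2.44 CPM late in 1.0 mM (edgeR adjusted p = 0.0477), and did not pass in 1.5 mM (edgeR adjusted p = 0.813). The 8 tested regulators of ADAM10 and ADAM17 gave 1 gene higher and 2 lower in 1.0 mM and 1 in each direction in 1.5 mM. The 10 tested membrane proteins that are shed gave 3 higher and 1 lower in 1.0 mM and 5 higher and 1 lower in 1.5 mM, and the cathepsins and glycan-degrading enzymes gave 1 of 10 and 2 of 11, all higher.

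The second comparison asked how the members differed between the 2 gels at the same embedding time. No member passed edgeR at either time. At 72 h, 0 of 41 tested members were called by edgeR, 3 had an unadjusted p below 0.05 (Adamts18, Mmp16 and Timp4), and none was called by DESeq2, against 0% of all genes called by edgeR and 6.9% with an unadjusted p below 0.05. At 96 h, 0 of 47 were called by edgeR and 3 had an unadjusted p below 0.05 (Adam8, Adam12 and Adamts10), against 0% and 9.95% of all genes in edgeR. DESeq2 called 1 by its adjusted p (Adam8). The gels did not overlap for 4 of 41 members at 72 h, against 11.1% of all genes, and for 4 of 47 at 96 h, against 15.5%. Across both times, 0 of 47 passed in edgeR and 1 in DESeq2 (Adam8), against 0.0305% of all genes in edgeR, or 0.0061% with the fold threshold, and 7 had an unadjusted p below 0.05 in edgeR against 12.7%. The share of all genes called by DESeq2 is not given, so its calls of Adam8 have no such share beside them.

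The member with the smallest p across both times was Adam8, a protease known from leukocytes and bone-resorbing cells. It was at 5.76, 8.46 and 4.83 CPM in 1.0 mM and at 7.55, 9.22 and 9.73 CPM in 1.5 mM after embedding at 72 h. After embedding at 96 h it was at 7.82, 7.83 and 8.90 CPM in 1.0 mM and at 10.2, 15.9 and 12.8 CPM in 1.5 mM, without overlap. The log2 fold change of 1.5 mM over 1.0 mM was 0.66 ± 0.158 at 96 h (edgeR adjusted p = 0.206) and 0.57 ± 0.139 across both times (edgeR adjusted p = 0.143), so it did not pass in edgeR. In DESeq2, which gave the same differences of 0.67 and 0.57, it did (adjusted p = 0.0222 and 0.00988). Mmp16 at 72 h was at 6.19, 3.72 and 5.74 CPM in 1.0 mM and at 7.11, 8.19 and 11.03 CPM in 1.5 mM, without overlap and without passing (0.75 ± 0.232, edgeR adjusted p = 0.698). Adamts18 at 72 h (-0.88 ± 0.286, edgeR adjusted p = 0.698), Adam12 at 96 h (0.37 ± 0.152, edgeR adjusted p = 0.451) and Adam1a across both times (0.35 ± 0.12, edgeR adjusted p = 0.262) were the next smallest p values in their comparisons and did not pass either. The exons of Adam1a share 63.7% of their bases with another gene on the same strand, so that its counts are uncertain.

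For the best-known members the differences between gels came with the following errors. Mmp2 differed by -0.02 ± 0.127 at 72 h and 0.02 ± 0.0946 at 96 h on the log2 scale, Mmp9 by -0.16 ± 0.239 and -0.02 ± 0.151, and Mmp14 by 0.28 ± 0.208 and 0.26 ± 0.202. Adam10 differed by 0.14 ± 0.101 and -0.09 ± 0.062. A p that misses the threshold does not show that these genes were alike in both gels, and the errors were widest for Mmp9 and Mmp14. None of the genes in the 8 accompanying lists passed for gel at either time.

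The third comparison asked whether the difference between embedding times itself differed between gels, with an interaction term over the 12 libraries. No member passed in edgeR (0 of 47, against 0% of all genes), 2 had an unadjusted p below 0.05 (Adamts18 and Timp3, against 4.32% of all genes), and none was called by DESeq2. The interaction log2 value of Timp3, which was called in 1.0 mM and not in 1.5 mM, was 0.66 ± 0.303 (edgeR adjusted p = 0.953). That of Mmp16 was 0.62 ± 0.294, that of Adam12 was -0.86 ± 0.42 and that of Adamts2 was -1.33 ± 0.85, all with an edgeR adjusted p of 0.953. Without the filter on low counts, Timp3, Adam12 and Adamts2 passed in edgeR at nearly the same values (edgeR adjusted p = 0.00714, 0.00268 and 2.12e-05). These genes pass that filter themselves, so the change came with the other genes that entered the fit. DESeq2, also run without this filter, called none of them, and the share of all genes passing in the unfiltered fit is not given. No conclusion on a different response between gels is drawn.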

How the data were processed

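RNA-seq was analysed from the 12 gastruloid libraries, 3 for each of 4 groups given by the labels. Per the labels and methods, the authors trimmed reads with cutadapt 4.4, aligned them to mm10 with STAR 2.7.10b and deposited raw counts per gene, with a counting tool and strand setting that are not given without conflict in the sources used here. They also deposited FPKM values from Cufflinks 2.2.1.3 (library type fr-firststrand). Deposited columns of fold changes and p values from the authors' own comparisons were not used. Here counts were tested with edgeR 4.0.16 (quasi-likelihood, TMM, filterByExpr, counts of at least 10 and totals of at least 15, R 4.3.3) after 36 mitochondrial genes were left out, with Benjamini-Hochberg adjustment over all genes. Standard errors of edgeR values were taken as the absolute log2 fold change divided by the square root of the F statistic. The scripts were tested on simulated data. CPM values are TMM-normalised over 12 libraries, and FPKM was used to compare genes. p values measure the spread between pools of gastruloids.

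The members and gene lists were chosen with earlier results of these data known. Named are members past an adjusted p of 0.05 in any comparison, the 4 most abundant Mmp, Adam and Adamts genes, every Timp, the 2 members of smallest p in each gel comparison, the textbook gelatinases and sheddases, and list genes past both thresholds for embedding time. Mmp24 and the silent collagenases and stromelysins were named after their values were seen. Alternatives were DESeq2 1.42.0, other normalisations and filters, a replicate block and leaving out each library.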

Additional observations from a re-analysis of the deposited data

How the results depend on the processing

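Leaving out 1 library at a time gave 1 to 4 differentially expressed members in 1.0 mM (4 with all libraries), 1 to 2 in 1.5 mM (1) and 1 to 5 across both gels (3). In 1.0 mM only Adamts2 was left without 72 h library 1 and only Mmp9 without 96 h library 3, and 2 members were left without 72 h library 2, 96 h library 1 or 96 h library 2. In 1.5 mM, Timp4 was added without 96 h library 3. Across both gels the count was 5 without 72 h library 3 in 1.0 mM and 1 without 96 h library 3 in 1.0 mM. Leaving out the 4 libraries numbered 1, chosen after seeing the data, gave 1 in 1.0 mM (Timp4), 1 in 1.5 mM and 2 across both gels. Without a fold threshold the counts in these fits were 3, 17 and 14, against 8, 9 and 19 with all libraries. Added in 1.5 mM were Adam8, Adam10, Adam15, Adamts9, Adamts15, Mmp2, Timp1 and Timp2. Without the low-count filter the differentially expressed members were 1 for gel at 72 h, 5 for embedding time across both gels and 1 for the interaction (Adamts2), where the filtered counts were 0, 3 and 0.

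Log2 fold changes that turned direction were not called with all libraries. With 1 library left out, Mmp16 in 1.0 mM ranged from -0.073 to 0.26, and in 1.5 mM Adam12 ranged from -0.30 to 0.41, Adamts2 from -0.13 to 1.26 and Timp3 from -0.26 to 0.20. The interaction ranged from -0.20 to 0.38 for Mmp14 and from -0.73 to 0.11 for Timp4. Without the libraries numbered 1, Mmp16 was at -0.026 in 1.0 mM, and Adam12 at -0.24 and Timp3 at 0.15 in 1.5 mM. The ratio of Timp RNA at 72 h to 96 h in 1.0 mM was 0.892 without its most abundant member. At a minimum of 2 FPKM, 16 members were detected. Causes of these changes were not tested.

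Same-numbered libraries had correlations of deviations from 0.0365 to 0.313, above 0.1 in 13 of 18 pairs, and all 12 libraries matched their own number best, a hint from the data and not the design. A replicate block gave 4, 1 and 3 differentially expressed members for embedding time and 0 for gel and interaction, with 17 in place of 9 passing the adjusted p alone in 1.5 mM. DESeq2 gave 3, 1 and 3. Shares of all genes are not given for any of these alternative fits, so their counts are no result about the members. For Adam8, higher in 1.5 mM in every fit at 96 h and across both times, edgeR passed only with the block (adjusted p = 0.0133 at 96 h and 0.0472 across both times) or without the low-count filter (0.00052 and 0.000204). Adam28 under the stricter filter and Adamts18 in DESeq2 at 72 h gave no value. Depth limits the members that never exceeded 3 counts in a library, which the edgeR fits with a low-count filter left out together with some others of low count.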
